A study of Homo sapiens with 4 samples.

Results

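The 40 genes described here act in mitosis, the division of the duplicated chromosomes between daughter cells. They were listed by function: cyclins and kinases of mitotic entry, the transcription factors FOXM1 and MYBL2, the spindle assembly checkpoint, centromere and kinetochore proteins, the chromosomal passenger complex, factors of anaphase onset, mitotic kinesins, spindle proteins, cytokinesis factors, and the proliferation markers MKI67 and TOP2A. Of the 40, 39 were measured by a probe set of their own among 18417 genes. CENPA, the centromeric histone, shares its probe set with another gene and was not analysed here. Each gene is represented by its brightest probe set over the 4 arrays, and 38 of the 39 had a single probe set.

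RNA was compared between MV4-11 (2 arrays), a human acute myeloid leukaemia cell line labelled drug-sensitive with high EZH2, and MV4-11R (2 arrays), labelled drug-resistant with low EZH2. MV4-11R was obtained from MV4-11 by growing it for 3 months with increasing PKC412, the FLT3 and multikinase inhibitor midostaurin. EZH2 is a histone methyltransferase. Both lines descend from the same cells, which carry an MLL fusion and an internal tandem duplication in FLT3. The labels do not say whether MV4-11R was a single clone, whether PKC412 was present at harvest, or whether a line was cultured separately for each array. The p-values therefore measure only the spread among these arrays, which may be technical.

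In a cycling cell, transcripts of most of these genes are low in G1, build up through S and G2 phase and peak around mitosis. In G1 the DREAM complex, which contains an RB-related protein and MuvB, holds them down through promoter elements called CHR, and later MYBL2 and FOXM1 act at the same promoters. Acute myeloid leukaemia lines divide continuously, so mitotic transcripts are abundant in them. In bulk RNA, fewer cells in G2 and mitosis cannot be told apart from less RNA per cell.

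Expression is given as log2 signal, each difference is the MV4-11R mean less the MV4-11 mean, and SE is the moderated standard error from limma. Rises and falls are named only where the Benjamini-Hochberg adjusted p over all 18417 genes was under 0.05. The median log2 signal of the arrays ran from 6.75 to 6.78, and across genes r was 0.994 between the MV4-11 arrays and 0.993 between the MV4-11R arrays, genes not being independent replicates. All values of the 39 genes, from 7.88 to 12.58, lay above 6.26, the 95th percentile of 341 olfactory receptor genes taken as a guide to background. Of 9 measured myeloid markers 8 were above that guide on all arrays, and CD14 was below it in MV4-11 alone. Of the 9, 4 fell (44.4%, with 7.13% of all genes) and 0 rose. The falls were CSF1R (-1.73), FLT3 (-0.93), PTPRC (-0.81) and LYZ (-0.69). Also above the guide on all arrays were 3 of 5 B cell, 5 of 9 epithelial and fibroblast and 1 of 4 erythroid and megakaryocytic markers. Readings above the guide were thus not particular to myeloid markers. Of 6 T and NK cell markers CD2 and the T-cell receptor complex genes CD3D, CD3E and CD3G were below it on all arrays, while CD8A (6.49 to 7.21) and the granule protein gene NKG7 were above it. NKG7 read 10.33 and 10.44 in MV4-11 and 11.29 and 11.37 in MV4-11R, a rise of 0.94 (SE 0.11, adjusted p = 0.00518).

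Most mitosis and spindle genes read slightly lower in MV4-11R, but few differences passed the test. Of the 39 genes 4 fell, 0 rose and 35 did not pass. The 4 that fell were ECT2, ANLN, KIF11 and NEK2, by 1.40-fold to 1.79-fold. They are 10.3% of the 39 genes, near the 7.13% of all genes that fell, and 7.92% of all genes rose. At an unadjusted p under 0.05 in limma, 11 of the 39 were lower (those 4, CDC25C, FOXM1, BUB1, ESPL1, NUSAP1, DLGAP5 and TOP2A) and 3 higher (AURKA, MYBL2 and CENPE), or 28.2% and 7.69%, where 13% and 15.6% of all genes were. In either direction 15.1% of all genes passed.

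The direction was shared more widely than the calls. The difference was below 0 for 31 of the 39 genes (79.5%), as it was for 48.5% of all genes. A shared direction also occurred within MV4-11. There 34 of the 39 (87.2%) read higher on replicate 1 than on replicate 2, with a median of 0.08, where 45.4% of all genes did. For 24 of the 39 (61.5%) both MV4-11R arrays read below both MV4-11 arrays, as they did for 26% of all genes, and for 6 (15.4%) both read above, against 29.6%. The median difference over the 39 genes was -0.19, with a range from -0.84 for ECT2 to 0.49 for MYBL2, beside a median of 0.0073 over all genes. Without an array in turn the median ran from -0.23 to -0.14. Dropping MV4-11 replicate 1 left 1 fall among the 39 genes (4.75% of all genes fell in that fit), dropping MV4-11 replicate 2 left 2 (4.3%), dropping MV4-11R replicate 1 left 1 (4.5%) and dropping MV4-11R replicate 2 gave 8 (6.73%), with ECT2 among them each time. In the fit without MV4-11R replicate 2, in which 6.73% of all genes rose, MYBL2 also passed as a rise of 0.70 (SE 0.15, adjusted p = 0.0353).

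**Figure D1:**
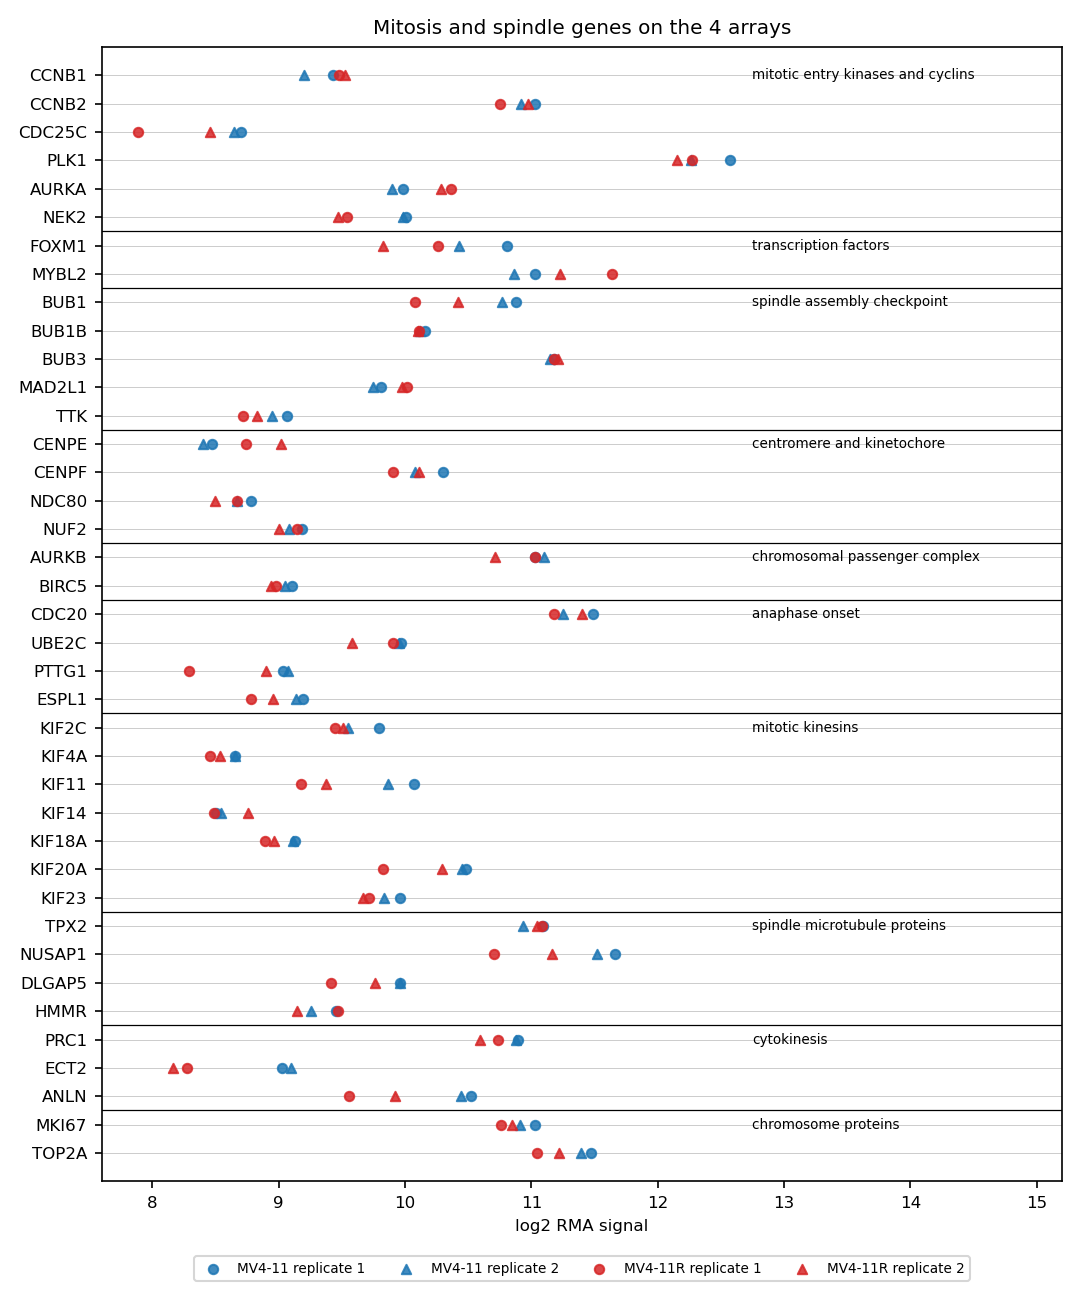
Log2 RMA signal of the 39 genes on each array, grouped by role. Blue marks are MV4-11, red marks MV4-11R, circles replicate 1 and triangles replicate 2. The red marks of ECT2, ANLN, KIF11 and NEK2 lie left of the blue ones with a clear gap, and those of AURKA, CENPE and MYBL2 lie to the right.

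Of the 3 cytokinesis genes among the 39, 2 fell (66.7%, with 7.13% of all genes) and 1 did not pass. ECT2, the exchange factor that activates the GTPase RhoA at the cleavage furrow (Entrez gene 1894, chromosome 3), read 9.02 and 9.10 in MV4-11 and 8.28 and 8.17 in MV4-11R. The groups were separated by many times their spread, at 9.06 ± 0.051 (SD, n = 2) and 8.22 ± 0.079 (SD, n = 2), and ECT2 fell 1.79-fold (log2 difference -0.84, SE 0.11, adjusted p = 0.00758). It passed under each of the 11 alternative settings, with adjusted p from 0.00366 to 0.0323. ANLN, the actin-binding scaffold anillin of the contractile ring (Entrez gene 54443, chromosome 7), read 10.52 and 10.44 in MV4-11 and 9.55 and 9.92 in MV4-11R. Its MV4-11R arrays differed by 0.36 and both lay below MV4-11, a fall of 1.68-fold (-0.75, SE 0.15, adjusted p = 0.0249). The ANLN call ended on dropping MV4-11 replicate 1 (adjusted p = 0.084), its replicate 2 (0.0604) or MV4-11R replicate 1 (0.0674). PRC1, which bundles the microtubules of the spindle midzone, read 10.90 and 10.88 in MV4-11 and 10.74 and 10.59 in MV4-11R. Its difference of -0.22 (SE 0.11, adjusted p = 0.268) did not pass, although the groups did not overlap.

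Among the mitotic kinesins, motor proteins that move along or take apart microtubules, 1 of 7 fell and 6 did not pass. KIF11, the plus-end motor that pushes the spindle poles apart (Entrez gene 3832, chromosome 10), read 10.07 and 9.87 in MV4-11 and 9.18 and 9.38 in MV4-11R. All MV4-11R values lay below MV4-11, and KIF11 fell 1.62-fold (-0.69, SE 0.13, adjusted p = 0.0213). The KIF11 call ended on dropping MV4-11 replicate 1 (0.0886) or MV4-11R replicate 1 (0.0753). KIF20A, a motor of the central spindle, read 10.48 and 10.46 in MV4-11 and 9.82 and 10.30 in MV4-11R, and its difference of -0.41 (SE 0.17, adjusted p = 0.183) came mainly from the lower MV4-11R array. The other 5 kinesins had differences of -0.20 (KIF2C, which depolymerises microtubule ends, and KIF23, a subunit of centralspindlin), -0.19 (KIF18A, which limits chromosome oscillation), -0.16 (KIF4A, a chromosome-bound motor) and 0.10 (KIF14, a cytokinesis motor). For 6 of the 7 kinesins (85.7%) both MV4-11R arrays were below both MV4-11 arrays, as they were for 26% of all genes. KIF14 was the exception. The motor CENPE, counted with the kinetochore genes and not among these 7, read higher on both MV4-11R arrays. Its difference of 0.45 did not pass.

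Of 6 kinases, cyclins and activators of mitotic entry, 1 fell (16.7%, with 7.13% of all genes) and 5 did not pass. NEK2, a kinase that helps to separate the centrosomes (Entrez gene 4751, chromosome 1), read 10.01 and 9.98 in MV4-11 and 9.54 and 9.47 in MV4-11R. Its arrays agreed closely within each line, at 9.99 ± 0.019 (SD, n = 2) and 9.51 ± 0.052 (SD, n = 2), and NEK2 fell 1.40-fold (-0.49, SE 0.11, adjusted p = 0.0323). The NEK2 call ended whichever array was dropped (adjusted p = 0.132 for MV4-11 replicate 1, 0.109 for its replicate 2, 0.078 for MV4-11R replicate 1 and 0.0969 for its replicate 2), while the difference stayed between -0.52 and -0.45.

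The promoters of the genes that fell are shown because mitotic genes are known to share short elements there. The 120 bases before the start of NEK2, KIF11, ANLN and ECT2 are given with those of PLK1 and CCNB2, which did not pass, from RefSeq (GRCh38.p14), 5′ to 3′ along the gene's strand. Capitals mark the letters TTTGAA, the core of the CHR element, and CCAAT, bound by NF-Y, on either strand, so that TTCAAA and ATTGG are the same letters read on the other strand. The windows are chr1:211675622-211675741 (minus strand) for NEK2, chr10:92593010-92593129 (plus) for KIF11, chr7:36389742-36389861 (plus) for ANLN, chr3:172750606-172750725 (plus) for ECT2, chr16:23678769-23678888 (plus) for PLK1 and chr15:59105026-59105145 (plus) for CCNB2. For ECT2, which has more than 1 listed start, the window of the start listed at the top is shown.
NEK2: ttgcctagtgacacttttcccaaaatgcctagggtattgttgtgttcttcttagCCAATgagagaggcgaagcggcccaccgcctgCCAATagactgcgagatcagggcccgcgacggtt
KIF11: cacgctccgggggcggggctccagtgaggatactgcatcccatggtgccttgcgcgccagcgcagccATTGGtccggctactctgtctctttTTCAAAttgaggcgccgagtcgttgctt
ANLN: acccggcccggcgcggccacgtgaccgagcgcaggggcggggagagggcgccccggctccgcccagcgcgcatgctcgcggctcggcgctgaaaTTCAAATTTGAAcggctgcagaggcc
ECT2: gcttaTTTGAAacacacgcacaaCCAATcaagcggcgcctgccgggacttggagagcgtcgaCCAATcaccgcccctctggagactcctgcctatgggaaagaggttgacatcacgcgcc
PLK1: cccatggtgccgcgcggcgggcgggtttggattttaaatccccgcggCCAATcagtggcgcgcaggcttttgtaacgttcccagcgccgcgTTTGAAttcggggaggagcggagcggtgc
CCNB2: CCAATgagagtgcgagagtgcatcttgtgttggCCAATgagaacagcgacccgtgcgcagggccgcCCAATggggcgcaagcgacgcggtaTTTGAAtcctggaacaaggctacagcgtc

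Among the genes that fell, KIF11 held TTTGAA at position -28 and CCAAT at -53, counted at the first base with -1 as the last base before the start. In ANLN TTTGAA occurred on both strands side by side, at -26 and -20, without CCAAT, and in NEK2 CCAAT occurred at -66 and -34 without TTTGAA. Within the printed bases ECT2 held TTTGAA at -115 and CCAAT at -97 and -58. The same start also had CCAAT from -2, running past the printed bases, and TTTGAA at 35. Counted from another listed start of ECT2, the same TTTGAA as that at 35 lay at -242, and a further TTTGAA lay at -182. PLK1 and CCNB2 both held TTTGAA at -29, with CCAAT upstream. A match is a description of letters and not evidence of a bound site.

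Promoter windows from 250 bases before to 50 after the start were available for 32 of the 39 measured genes, and for 14239 of all genes tested. TTTGAA on either strand was found for 23 of the 32 (71.9%), against 15.7% of all genes and 1 of 24 S phase genes. CCAAT was found for 25 of the 32 (78.1%), against 42.2% of all genes and 16 of 24 S phase genes (66.7%). Both letters together were found for 19 (59.4%), against 8.09% of all genes and 1 of 24 S phase genes. TTCGAA, a rarer form of CHR, was found for 2 (6.25%, against 2.2% of all genes and 1 of 24 S phase genes), BUB1 and NDC80. GGCGG, letters of the neighbouring CDE element, was found for all 32, against 79.8% of all genes and 23 of 24 S phase genes (95.8%). Members with more than 1 listed start counted once, if any window held the letters. By the presence of TTTGAA the differences were alike in their median: the 23 with TTTGAA had a median difference of -0.19 with 3 falls, and the 9 without it a median of -0.20 with 1 fall.

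The remaining regulators of mitotic entry went both ways without passing. CCNB1 and CCNB2, the B-type cyclins that activate CDK1, had differences of 0.18 (SE 0.12, adjusted p = 0.413) and -0.11 (SE 0.13, adjusted p = 0.651). CDC25C, a phosphatase that activates CDK1, read 8.70 and 8.65 in MV4-11 and 7.88 and 8.45 in MV4-11R. Its MV4-11R arrays lay 0.57 apart, both below MV4-11, and the difference of -0.50 (SE 0.19, adjusted p = 0.151) did not pass. PLK1, a master kinase of mitosis, overlapped between the lines, at 12.58 and 12.26 against 12.27 and 12.15. AURKA, the kinase of centrosomes and spindle poles, read 9.98 and 9.90 in MV4-11 and 10.37 and 10.28 in MV4-11R. The lines did not overlap, and the difference of 0.38 (SE 0.11, adjusted p = 0.0699) lay just outside the threshold.

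Both transcription factors stood apart between the lines in opposite directions, and neither passed. FOXM1, which drives G2 and mitosis genes, read 10.81 and 10.42 in MV4-11 and 10.26 and 9.83 in MV4-11R. The arrays differed by 0.39 within MV4-11 and by 0.43 within MV4-11R without the lines overlapping, and the difference was -0.57 (SE 0.20, 95% interval -1.05 to -0.09, adjusted p = 0.113). MYBL2, the MuvB partner B-MYB, read 11.03 and 10.86 in MV4-11 and 11.64 and 11.23 in MV4-11R, a difference of 0.49 (SE 0.16, 95% interval 0.09 to 0.89, adjusted p = 0.106). The MV4-11R array with the higher MYBL2 was also the one with the higher FOXM1.

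Of the 5 genes of the spindle assembly checkpoint, which delays anaphase until chromosomes are attached, none passed. BUB1, a kinase that recruits other checkpoint proteins to kinetochores, was closest to the threshold. It read 10.88 and 10.77 in MV4-11 and 10.08 and 10.42 in MV4-11R, with no overlap, and the difference was -0.57 (SE 0.15, adjusted p = 0.0511). BUB1 passed under 7 of the 11 alternatives. BUB1B (BubR1) and BUB3, its partners, hardly differed between the lines, at -0.03 (95% interval -0.29 to 0.22) and 0.04 (95% interval -0.22 to 0.29). MAD2L1, the checkpoint effector, had a difference of 0.22 and TTK (MPS1), the kinase that starts the signal, one of -0.23, both with adjusted p above 0.25 (0.258 and 0.252).

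Of the centromere and kinetochore genes 4 were measured and none passed. CENPE, a kinetochore motor, read 8.47 and 8.40 in MV4-11 and 8.74 and 9.02 in MV4-11R, higher on both arrays by a mean of 0.45 (SE 0.13, adjusted p = 0.0761). The NDC80 complex subunits NDC80 and NUF2, which grip microtubules, had differences of -0.14 and -0.06, and the large kinetochore protein CENPF one of -0.18, all with overlapping arrays. In the chromosomal passenger complex, which corrects faulty attachments, the kinase AURKB had a difference of -0.19 (adjusted p = 0.449) and BIRC5 (survivin) one of -0.12 (adjusted p = 0.551).

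Anaphase genes were lower on average, with 0 of 4 passing. PTTG1 (securin), the inhibitor of separase, read 9.03 and 9.08 in MV4-11 and 8.29 and 8.90 in MV4-11R, so that the MV4-11R arrays differed by 0.61 and the difference of -0.46 (SE 0.20, adjusted p = 0.206) rested largely on the lower array. ESPL1 (separase), the protease that cuts cohesin, had a difference of -0.30 (SE 0.12, adjusted p = 0.157). UBE2C, an E2 enzyme of the anaphase-promoting complex (APC/C), had a difference of -0.22, and CDC20, which activates that complex, one of -0.08 with overlapping arrays.

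Among spindle proteins NUSAP1, which bundles microtubules around chromosomes, read 11.66 and 11.52 in MV4-11 and 10.71 and 11.17 in MV4-11R. Both MV4-11R arrays lay below MV4-11, and the difference of -0.65 (SE 0.17, adjusted p = 0.0562) missed the threshold. NUSAP1 passed under 7 of the 11 alternatives, among them without MV4-11R replicate 2, where the difference was -0.88 (adjusted p = 0.0172). DLGAP5 (HURP), which stabilises kinetochore fibres, read 9.96 and 9.96 in MV4-11 against 9.42 and 9.76 in MV4-11R, a difference of -0.37 (SE 0.14, adjusted p = 0.149). TPX2, the activator of AURKA, and the spindle protein HMMR had differences of 0.05 and -0.05 with overlapping arrays.

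MKI67, the Ki-67 protein that coats mitotic chromosomes and marks cycling cells, read 11.03 and 10.91 in MV4-11 and 10.76 and 10.85 in MV4-11R. Its difference was -0.17 (SE 0.11, 95% interval -0.44 to 0.11, adjusted p = 0.418). TOP2A, the topoisomerase that untangles sister chromatids and the target of anthracyclines, read 11.47 and 11.40 in MV4-11 and 11.05 and 11.22 in MV4-11R, a difference of -0.30 (SE 0.12, 95% interval -0.59 to -0.01, adjusted p = 0.156). Over the 35 genes that did not pass, the 95% intervals reached 0.26 to 0.50 to either side, and for 33 of them the whole interval lay within 1 log2 unit of 0.

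**Figure D2:**
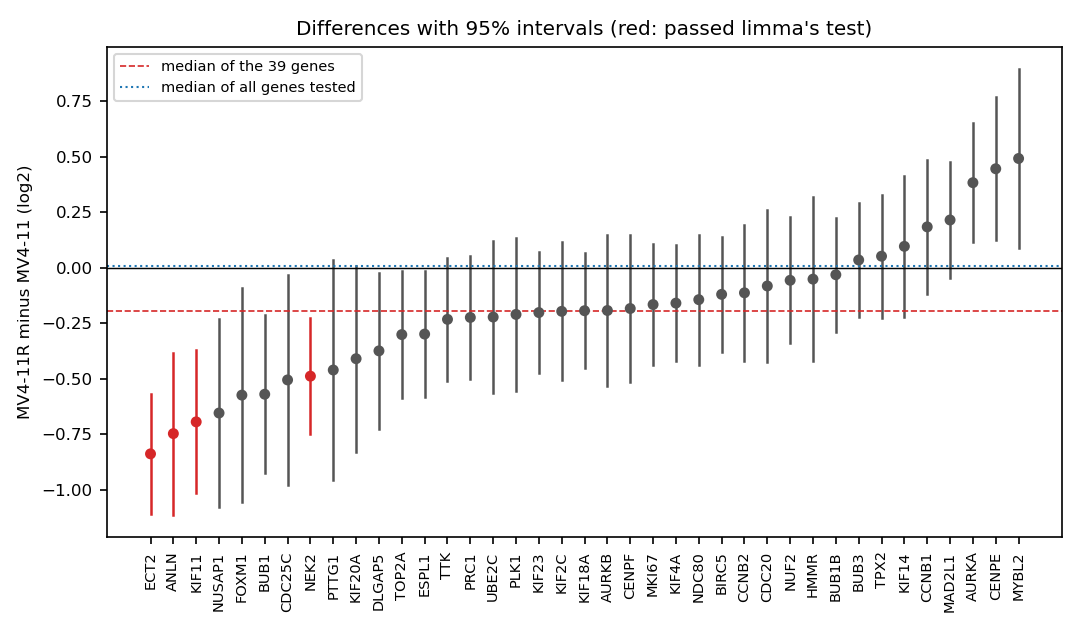
MV4-11R minus MV4-11 difference of each of the 39 genes with limma's 95% interval, ordered by size, red where the adjusted p was under 0.05. The dashed line is the median of the 39 genes, -0.19, and the dotted line the median of all genes tested, 0.0073. NEK2 passed with a smaller difference than several genes that did not, with a smaller interval.

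The arrays within MV4-11R differed for several of these genes. PTTG1, CDC25C, KIF20A and NUSAP1 were lower on MV4-11R replicate 1 than on replicate 2 by 0.61, 0.57, 0.47 and 0.46, whereas FOXM1, MYBL2, UBE2C, HMMR and AURKB were higher there by 0.31 to 0.43. In all, 22 of the 39 genes (56.4%) were lower on MV4-11R replicate 1, with a median of -0.06, where 44.2% of all genes were. In MV4-11, 34 of the 39 (87.2%) were higher on replicate 1 than on replicate 2, with a median of 0.08, where 45.4% of all genes were. Taken singly against the mean of MV4-11, MV4-11R replicate 1 had a median difference of -0.20 over the 39 genes and replicate 2 one of -0.17. The list thus lay lower on either MV4-11R array, while single genes moved between them.

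S phase genes, which copy DNA earlier in the cycle, also differed between arrays of the same line. Of 27 such genes 4 rose and 1 fell (14.8% and 3.7%, with 7.92% and 7.13% of all genes), and their median difference was 0.31, beside 0.0073 over all genes. GINS1, a subunit of the replicative helicase, rose by 1.05 (SE 0.22, adjusted p = 0.0276), the ribonucleotide reductase subunit RRM2 by 1.01 (SE 0.11, adjusted p = 0.00425) and the helicase subunit MCM6 by 0.74 (SE 0.18, adjusted p = 0.046), and TYMS fell by 0.67 on the log2 scale (SE 0.13, adjusted p = 0.0211). On MV4-11R replicate 1, 25 of the 27 (92.6%) were higher than on replicate 2, by a median of 0.40, where 55.7% of all genes were higher. In MV4-11, 22 of the 27 (81.5%) were higher on replicate 1, by a median of 0.17, where 45.4% of all genes were. Against the mean of MV4-11 their median was 0.52 on MV4-11R replicate 1 and 0.084 on replicate 2. RRM2 passed without each array in turn. The other named calls were lost, for GINS1 without MV4-11 replicate 2 (0.0768), for MCM6 without MV4-11 replicate 1 (0.0579), its replicate 2 (0.149) or MV4-11R replicate 1 (0.131), and for TYMS without MV4-11 replicate 1 (0.0911) or MV4-11R replicate 2 (0.0627). The part of these differences between arrays in the values of the mitosis and spindle genes was not tested.

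**Figure D3:**
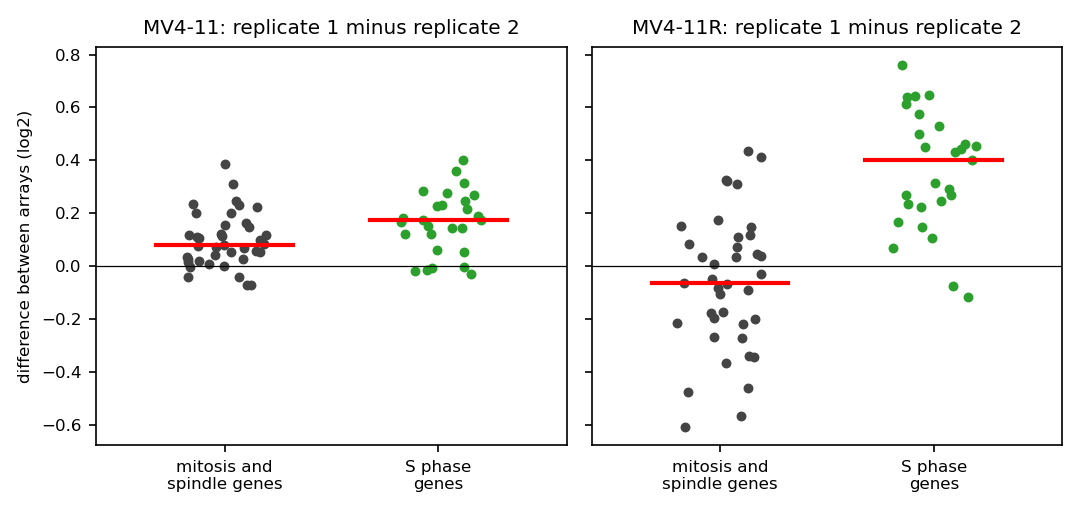
Replicate 1 minus replicate 2 within each line for the 39 mitosis and spindle genes and the 27 S phase genes, in log2 units, with medians as red bars. The S phase genes sit mostly above 0 in both lines, with medians of 0.17 in MV4-11 and 0.40 in MV4-11R, and the mitosis and spindle genes have medians of 0.08 and -0.06.

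Other genes of the pathway were counted in 8 lists that hold none of the 39. Of their 136 measured genes 11 rose and 17 fell, while 108 did not pass (8.09% and 12.5%, with 7.92% and 7.13% of all genes), and their median difference was -0.05. CDK1, the kinase at the centre of mitotic entry, had a difference of -0.35 (SE 0.12, adjusted p = 0.123), and its S and G2 phase cyclin CCNA2 one of 0.06 (SE 0.12, adjusted p = 0.826), or -0.08 with the shift of chromosomal neighbours removed.

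Of 15 further regulators of mitotic entry and exit 1 rose and 4 fell (6.67% and 26.7%, with 7.92% and 7.13% of all genes). The other 10 did not pass. CDC25A, a phosphatase that activates CDK2 and CDK1, read 7.74 and 7.39 in MV4-11 and 9.29 and 8.85 in MV4-11R, a 2.84-fold rise (SE 0.19, adjusted p = 0.00667). BORA, the cofactor through which AURKA activates PLK1, fell 2.23-fold (-1.16, SE 0.11, adjusted p = 0.00309), from 9.14 ± 0.097 (SD, n = 2) to 7.98 ± 0.039 (SD, n = 2). MASTL (Greatwall), a kinase that restrains the phosphatase PP2A in mitosis, fell 1.82-fold (-0.86, SE 0.11, adjusted p = 0.00725), from 10.13 and 10.27 to 9.37 and 9.30. These 3 passed without each array in turn. CKS2, a small subunit of CDK complexes, fell by 0.59 on the log2 scale (adjusted p = 0.0429), a call that ended on dropping MV4-11 replicate 1 (0.172), its replicate 2 (0.0563) or MV4-11R replicate 1 (0.147).

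Of 24 further spindle and centrosome genes 1 rose and 6 fell (4.17% and 25%, with 7.92% and 7.13% of all genes). The other 17 did not pass. The median over the 24 was -0.26, and 21 differences (87.5%) were below 0, as were 48.5% of all genes. CKAP2, a microtubule-binding protein, fell 3.09-fold (-1.63, SE 0.14, adjusted p = 0.00217), from 11.04 and 10.90 to 9.19 and 9.49. KIFC1, the minus-end kinesin that gathers extra centrosomes, fell 2.27-fold (-1.18, SE 0.11, adjusted p = 0.00278), from 10.24 ± 0.024 (SD, n = 2) to 9.06 ± 0.085 (SD, n = 2). CPAP (CENPJ), a centriole length factor, fell by 0.80 on the log2 scale (SE 0.19, adjusted p = 0.0377) and the pericentriolar protein CEP192 rose by 0.46 (SE 0.11, adjusted p = 0.0462). CKAP2 and KIFC1 passed without each array in turn. The CPAP call ended on dropping MV4-11 replicate 1 (0.0792), its replicate 2 (0.107) or MV4-11R replicate 1 (0.0776), and the CEP192 call whichever array was dropped (0.0988 to 0.209).

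Of 35 further kinetochore and checkpoint genes 5 rose and 1 fell, while 29 did not pass, with a median of 0.11. Over all genes 7.92% rose and 7.13% fell. SKA1, which holds kinetochores on microtubules, read 9.02 and 8.73 in MV4-11 and 10.61 and 9.92 in MV4-11R, a 2.62-fold rise (SE 0.24, adjusted p = 0.0156) that passed without each array in turn. CENPH, of the inner kinetochore, rose by 0.71 (adjusted p = 0.0187) and DSN1, of the MIS12 complex, by 0.58 (adjusted p = 0.0457), and HJURP, the chaperone that loads CENPA, fell by 0.45 on the log2 scale (adjusted p = 0.0405). The CENPH call ended on dropping MV4-11 replicate 1 (0.0624), its replicate 2 (0.0612) or MV4-11R replicate 1 (0.0605), DSN1 without the same 3 (0.128, 0.128 and 0.141) and HJURP whichever array was dropped (0.109 to 0.165).

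Of 17 APC/C subunits and regulators 3 rose and 1 fell (17.6% and 5.88%, with 7.92% and 7.13% of all genes). The other 13 did not pass, and the median over the 17 was 0.09. ANAPC1, the scaffold subunit, read 8.33 and 7.96 in MV4-11 and 9.29 and 9.28 in MV4-11R, a 2.20-fold rise (SE 0.15, adjusted p = 0.00707) that passed without each array in turn. ANAPC10 rose by 0.57 (adjusted p = 0.0457) and ANAPC7 by 0.48 (adjusted p = 0.0361), and CDC16 fell by 0.67 on the log2 scale (adjusted p = 0.023). The ANAPC10 call ended on dropping MV4-11 replicate 2 (0.177), MV4-11R replicate 1 (0.102) or MV4-11R replicate 2 (0.12), ANAPC7 whichever array was dropped (0.0683 to 0.149) and CDC16 without MV4-11 replicate 2 (0.0928) or MV4-11R replicate 2 (0.0681).

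Of 17 genes of the DREAM, MuvB and E2F regulators 0 rose and 3 fell (0% and 17.6%, with 7.92% and 7.13% of all genes). The other 14 did not pass. At an unadjusted p under 0.05 in limma 0 were higher and 4 lower (0% and 23.5%, with 15.6% and 13% of all genes). RB1, the retinoblastoma protein, read 12.12 and 12.03 in MV4-11 and 10.37 and 10.52 in MV4-11R, a 3.09-fold fall (-1.63, SE 0.12, adjusted p = 0.00154). TFDP1, the DNA-binding partner of E2F factors, fell 1.90-fold (-0.93, SE 0.12, adjusted p = 0.0064), from 12.47 and 12.32 to 11.52 and 11.41, and both passed without each array in turn. E2F7, a repressor, fell by 0.68 on the log2 scale (adjusted p = 0.024), a call that ended on dropping MV4-11 replicate 1 (0.0911), its replicate 2 (0.0587) or MV4-11R replicate 2 (0.0643). E2F1, the activator of S phase genes, read 9.44 and 9.32 in MV4-11 and 10.34 and 9.54 in MV4-11R, so that its difference of 0.57 (SE 0.26, adjusted p = 0.215) rested on MV4-11R replicate 1, and without replicate 2 it was 0.97 (adjusted p = 0.0126).

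Among 8 condensin subunits, which compact chromosomes, NCAPG2 fell by 0.70 on the log2 scale (adjusted p = 0.0166), a call that ended on dropping MV4-11 replicate 1 (0.0644) or MV4-11 replicate 2 (0.0507). Among 9 tubulins TUBA4A rose by 0.69 (adjusted p = 0.0158) and TUBA1A fell by 0.79 on the log2 scale (adjusted p = 0.0153), and both calls ended on dropping MV4-11 replicate 1 (0.0712 and 0.0532). Tubulin genes are close in sequence, and their probes can share signal. Of the condensin subunits 0% rose and 12.5% fell, with 7.92% and 7.13% of all genes. Of the tubulins 11.1% rose and 11.1% fell. None of 11 further cytokinesis genes passed. At an unadjusted p under 0.05 in limma 1 was higher and 3 lower (9.09% and 27.3%, with 15.6% and 13% of all genes). DEPDC1 came nearest with a difference of -0.41 (adjusted p = 0.0522).

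**Figure D4:**
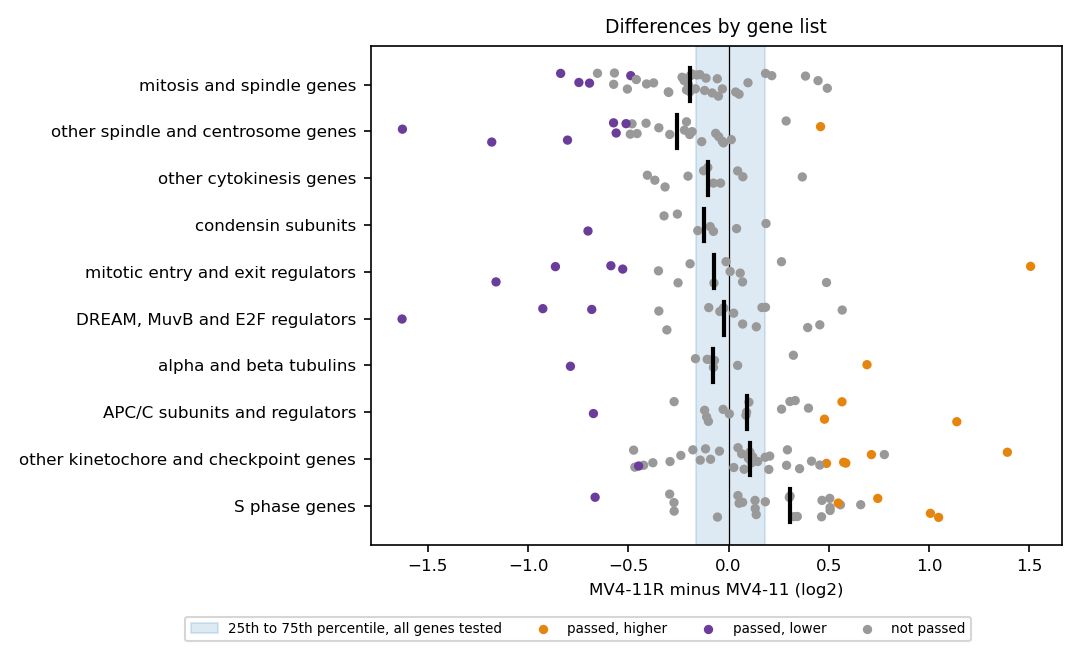
Difference of each measured gene by list, in log2 units, with list medians as black bars, rises that passed in orange, falls that passed in purple and the rest in grey. The blue band spans the 25th to 75th percentile of all genes tested, -0.16 to 0.18. Medians ran from -0.26 for spindle and centrosome genes to 0.31 for S phase genes.

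Some of these changes lay where whole stretches of a chromosome were shifted. For each gene the median difference of up to 20 neighbours on each side was taken. Where this median was subtracted, limma's SE was kept unchanged. The adjusted p-values after that step therefore leave out the error of the neighbours' median. CKAP2, BORA, RB1, TFDP1 and CDC16 all lie on chromosome 13, where the neighbours' medians were -1.08, -1.07, -1.03, -0.99 and -0.93. With that shift taken off, RB1 kept a fall of 0.60 on the log2 scale (adjusted p = 0.0227), CKAP2 was at -0.55 (adjusted p = 0.0507) and BORA at -0.09 (adjusted p = 0.632), while TFDP1 and CDC16 turned to 0.06 (adjusted p = 0.772) and 0.26 (adjusted p = 0.249). SKA1 and CEP192 lie on chromosome 18, with neighbours at 0.68 and 0.39, and went to 0.71 (adjusted p = 0.104) and 0.07 (adjusted p = 0.726). ANAPC10 (0.44, adjusted p = 0.0878), DSN1 (0.37, 0.15), CPAP (-0.69, 0.0588), CKS2 (-0.35, 0.162) and GINS1 (0.82, 0.0555) also lost their calls. Outside the genes named above, the rises of CENPW (0.55, adjusted p = 0.0541) and the S phase gene CHAF1A (0.32, adjusted p = 0.159) were lost too. DEPDC1 passed here and not in the fit without this step, at -0.48 (adjusted p = 0.0333), as did the cohesin protector SGO2 (-0.75, 0.0416) and the DNA polymerase subunit POLA1 (0.56, 0.038), which were singled out after their values were seen.

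The mitosis and spindle genes themselves are spread over the genome, and their neighbours' medians ran from -0.23 to 0.28, with a median of 0.08. The 4 on chromosome 20, AURKA, MYBL2, UBE2C and TPX2, had neighbours at 0.28, 0.18, 0.17 and 0.24. With the shift removed AURKA went from 0.38 to 0.10, MYBL2 from 0.49 to 0.31, UBE2C from -0.22 to -0.39 and TPX2 from 0.05 to -0.19. ECT2, with neighbours at -0.23, went from -0.84 to -0.60 (adjusted p = 0.0201), and the falls of ANLN (-0.76), KIF11 (-0.81) and NEK2 (-0.50) kept their calls. BUB1 (-0.63, adjusted p = 0.0396) and NUSAP1 (-0.77, adjusted p = 0.0352) passed as well, which made 6 falls among the 39 genes, or 15.4%, with 7.85% of all genes falling under that setting. The median over the 39 genes was then -0.25.

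**Figure D5:**
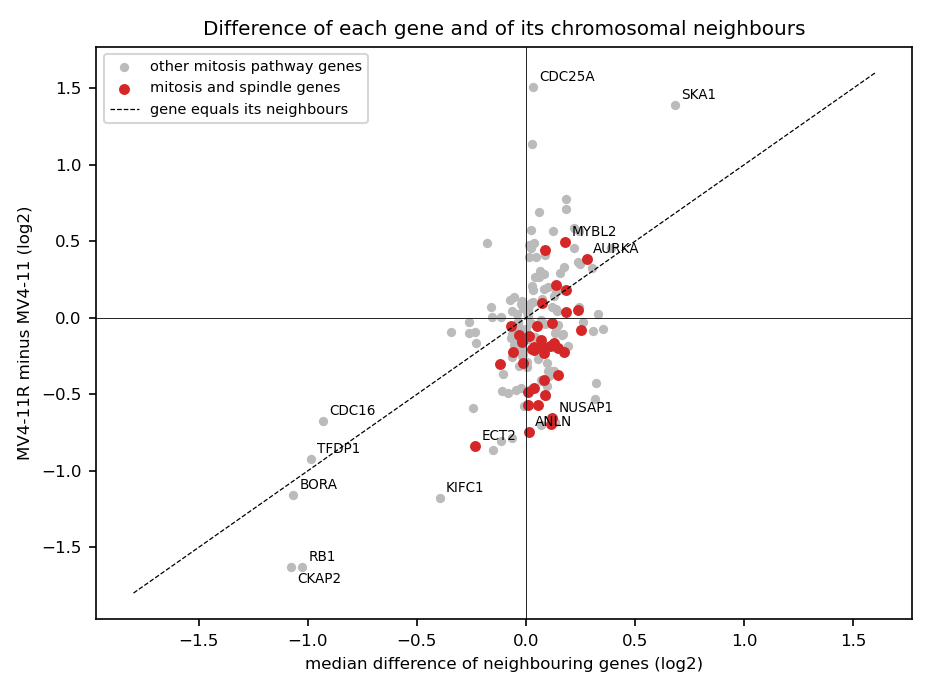
Difference of each gene against the median difference of its chromosomal neighbours, both in log2 units, for the 39 mitosis and spindle genes (red) and the other mitosis pathway genes (grey). Genes of chromosome 13 such as BORA and TFDP1 lie at the lower left near the dashed line of equality, while the red points lie between -0.23 and 0.28 on the horizontal axis.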

How the data were processed

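RNA from 2 MV4-11 and 2 MV4-11R arrays (Affymetrix Human Gene 1.0 ST) was analysed. The authors deposited log2 values that the submitters' processing notes credit to RMA and Affymetrix Expression Console; versions and genome build are not given in the sources used here. RMA subtracts background, equalises the arrays' distributions and summarises probes, so a shift shared by all genes is not visible and low levels are compressed. Of 33297 probe sets 19460 name 1 gene, 1754 several and 12083 none in the platform annotation; only the first were used, giving 18417 genes by their brightest probe set. The lines were compared with limma 3.58.1 (R 4.3.3, lmFit and eBayes, 2-sided, Benjamini-Hochberg over all 18417 genes, threshold 0.05), tested on simulated data. With 2 arrays per line the number of arrays limits the precision. The members and lists were chosen with earlier results of these data known. Members were all described, and the other named genes were CDK1, CCNA2, RB1, E2F1 and up to 3 passing genes of largest difference in each direction per list, or 1 where none passed. Alternatives left out each array, added a replicate block, centred medians, quantile-normalised, averaged probe sets, filtered low genes, used a trended robust fit, or removed the median difference of 20 bright neighbours on each side. Promoter letters were counted in RefSeq windows (GRCh38.p14).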

Additional observations from a re-analysis of the deposited data

How the results depend on the processing

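With 4 arrays the calls depended on single arrays; in these fits the lone array of a line was assumed to vary like the other line's. Leaving out each array gave 1 to 8 falls and 0 to 1 rises among the 39 genes, a median difference from -0.23 to -0.14, and 1588 to 2479 calls among all genes. With the replicate number as a block there were 7 falls and 1 rise among the 39 (9.32% and 10.5% of all genes), adding FOXM1 (-0.57, adjusted p = 0.0184), BUB1 (-0.57, 0.0459), NUSAP1 (-0.65, 0.0498) and MYBL2 (0.49, 0.0391), and 3642 calls among all genes; same-numbered arrays deviated together (r = 0.26), but the labels tie them only by number. The median was -0.23 after median centring and -0.25 with the regional shift removed, and the other settings gave 4 to 6 falls and 0 rises. Falls over all genes ran there from 7.06% (mean of probe sets, 4 falls) to 9.98% (low genes filtered, 6 falls). Within 150 bases before the start TTTGAA was found for 16 of the 32 members with promoter windows (50%, against 7.62% of all genes). TTTGAA and CCAAT together were found there for 14 (43.8%, against 3.1%), and TTCGAA for 0 (against 0.871%). With the regional shift removed the differences of BUB3 (-0.15), NUF2 (0.011) and TPX2 (-0.19) turned, as did those of CCNA2 (-0.078), CDC16 (0.26) and TFDP1 (0.060) among the pathway genes, whose alternatives were chosen after seeing the data. Dropping single arrays turned NUF2 (-0.13 to 0.017), CDC20 (-0.20 to 0.036), KIF14 (-0.037 to 0.23), TPX2 (-0.025 to 0.13), HMMR (-0.21 to 0.11) and CCNA2 (-0.033 to 0.15). The cause was not tested.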
